A study of Mus musculus with 6 samples.

Results

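Strong Satb1 knockdown was compared with non-targeting siRNA in 4 of the 6 RNA-seq libraries of the series, chosen by their labels. All were made from the cancer-associated dendritic cells that C57BL/6 mice carried while bearing ID8-Defb29/Vegf-a tumours, an ovarian tumour line made to secrete Defb29 and Vegf-a. The mice received 100 µg of siRNA in rhodamine-conjugated polyethylenimine nanocomplexes over 32-38 days, with the siRNA either non-targeting (NT) or directed against Satb1. The high experiment, named for its large decrease of Satb1, holds 2 NT and 2 Satb1 siRNA libraries, and the low experiment holds 1 library of each kind. Both arms therefore carry the same tumour and the same carrier, and they differ by the siRNA sequence. The sources used here do not say how the cells were sorted or whether each library had a mouse of its own. Of 27634 genes in the table, 20242 had enough counts to be tested.

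Satb1 is a nuclear protein that binds AT-rich DNA and tethers chromatin loops, and through them it sets the activity of many genes at once. It is best known from thymocytes, where it guides T cell development. Dendritic cells present antigen to T cells, and in tumours they can take on features that restrain immunity. The title of the series ties an excess of Satb1 in such cells to activities that favour the tumour, and the knockdown asks which transcripts follow Satb1.

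The NT libraries held 67774712 and 71272720 counts, and those of Satb1 siRNA held 51710612 and 49022011. Libraries of the same siRNA were near-identical. Their chi-square per gene was 1.202 for NT and 1.37 for Satb1 siRNA, where 1 is counting noise, against 67.4 to 68.5 between siRNAs. They were counted as 1 sample per siRNA in any statement about the treatment. A p-value below therefore compares libraries, with edgeR's quasi-likelihood test and Benjamini-Hochberg adjustment, and it holds no spread between mice. For that reason sizes of change lead the text, and a gene was called higher or lower when its adjusted p was under 0.05 and its fitted fold was at least 1.5, or 0.585 on the log2 scale.

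The markers of the cells were compared by length-normalized level (FPKM). The dendritic cell markers were low, with Itgax, which encodes CD11c, at 5.97 and 6.07 FPKM in the NT libraries, Zbtb46 at 1.95 and 2.00, and Flt3 at 0.25 and 0.30. The macrophage markers were high except Timd4, at 2.26 and 2.07 FPKM. Csf1r stood at 120 and 120 FPKM, Emr1, which encodes F4/80, at 106 and 106, and Cd68 at 273 and 277. Epithelial or mesothelial Krt19 stood at 121 and 122 FPKM, but Msln at 1.96 and 1.91 and Epcam at 1.17 and 1.28. Of the fibroblast markers Dcn stood at 121 and 119 FPKM, but Pdgfra at 0.59 and 0.62, Col1a2 at 0.24 and 0.21 and Col1a1 at 0.07 and 0.05. The RNA thus carried more macrophage than dendritic cell marker transcripts, and the name dendritic cell is used here as the labels give it.

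The summed level of each marker list was taken in CPM, counts relative to library size, after scaling for composition by edgeR's trimmed mean (TMM), the scale of every level below unless FPKM is named. The 6 dendritic cell markers summed to 37.6 and 38.9 CPM with NT and to 21.4 and 20.5 with Satb1 siRNA, with 2 members called higher (Flt3 and Cd209a) and 2 lower (Itgax and Ccr7). Itgax alone stood at 22.6 and 22.5 CPM with NT and at 6.13 and 5.53 with Satb1 siRNA. The fall of the sum was thus mostly that of Itgax and is not read as a fall of the list. The 6 macrophage markers summed to 1387, 1390, 1340 and 1330 CPM in the order NT 1, NT 2, Satb1 siRNA 1, Satb1 siRNA 2, with Cd14 lower and none higher. This order of libraries is kept throughout. The 5 B cell markers summed to 6.11, 6.17, 11.4 and 11.1 CPM with 3 called higher, and of the 6 T cell markers 5 were in the table, summing to 6.22, 6.60, 9.85 and 9.22 CPM with 2 called higher. Of the B cell calls, that of Pax5 ends without NT library 1, at a log2 fold change of 0.70. The called B and T cell markers, Flt3, Cd209a and Ccr7 all had a mean log2 CPM under 2. Of all tested genes at a mean log2 CPM of -2 to 0, 29.7% were called higher and 14.3% lower. At 0 to 2 these shares were 17.1% and 9.30%. The calls are therefore not read as more B or T cells.

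The 4 neutrophil markers in the table summed to 51.6, 51.1, 68.4 and 67.8 CPM, with S100a8 and S100a9 called higher and Mpo lower. Most of that sum was Cxcr2, at 42.0, 41.6, 54.5 and 53.9 CPM, which was not called. The S100a9 log2 fold change of 0.60 falls under the limit without NT library 1 (0.56) or Satb1 siRNA library 2 (0.52). The 6 mesothelial or tumour markers, at 535, 539, 606 and 603 CPM, held no called member, and of the 4 fibroblast markers, at 234, 231, 291 and 290 CPM and nearly all of it Dcn, Col1a2 was higher. The 4 endothelial markers, at 12.99, 13.2, 8.98 and 9.48 CPM, held 2 lower members, Cdh5 and Vwf, the latter under the limit with scaling by library size (-0.58). The 3 natural killer and 2 erythroid markers in the table summed to at most 4.54 CPM with no call, though of the former Ncr1 and Gzmb were too low to be tested. No marker in the table was at 0 in all libraries. The called markers Mpo, Col1a2, Cdh5 and Vwf also had a mean log2 CPM under 2. The part of these marker shifts in the changes below was not tested. In bulk RNA, fewer cells of a type and less RNA per cell cannot be told apart.

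Satb1 itself had 1233 and 1193 counts with NT siRNA and 184 and 200 with Satb1 siRNA. In CPM these were 18.5, 17.1, 3.49 and 4.01, so both knockdown libraries lay below both controls. The log2 fold change was -2.25 (SE 0.07, edgeR adjusted p = 1.7e-39). In the low experiment the log2 ratio of Satb1 was -0.26, from 1 library per siRNA. Because Satb1 organizes chromatin, its neighbours on chromosome 17 were also read, in the gene order of the RefSeq annotation of GRCm38.p6. Of the 5 tested genes on each side, the members Daam2, Kif6, Rftn1, Dazl and Plcl2 had log2 fold changes of 0.04 to 0.42 and none was called. On the other side Rab5a and Kat2b stood at -0.03 and 0.04, also uncalled, while Efhb, Kcnh8 and 4921523A10Rik were called higher. Efhb, a gene of an EF-hand calcium-binding protein, had 86 and 100 counts with NT and 214 and 199 with Satb1 siRNA, a log2 fold change of 1.56. Kcnh8, a potassium channel gene, had only 2, 1, 18 and 12 counts. Efhb and 4921523A10Rik had a mean log2 CPM of 1.35 and 1.93, and 17.1% of all tested genes at 0 to 2 were called higher. Kcnh8 stood at -2.54, and 41.8% of those under -2 were called higher. Efhb and Kcnh8 were singled out after their values were seen.

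Across all tested genes, 2678 were called higher, or 13.2%, and 1743 lower, or 8.61%. The median log2 fold change was 0.01, and 5% to 95% of genes spanned -0.87 to 1.33. A change of 2-fold or more on the fitted scale was reached by 1543 genes upward and 812 downward. The balance of the calls depended on the level of the gene. Of 1537 genes with a mean log2 CPM under -2, 41.8% were higher and 16.3% lower, with a median of 0.71. Of 4306 genes between 4 and 6, 1.32% were higher and 4.39% lower, with a median of -0.07. The NT libraries were also the deeper ones, and the part of depth in this pattern was not tested.

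The reading below therefore rests on the 11368 genes whose mean log2 CPM was at least 2, a limit chosen after the data were seen. Of these, 256 were higher, or 2.25%, and 603 were lower, or 5.3%. Their median log2 fold change was -0.06, 5% to 95% of them spanned -0.60 to 0.47, and 57.6% lay below 0. Scaling by library size moves the median over all tested genes from 0.01 to 0.06, a shift about as large as this median, so its sign rests on the scaling. Changes of 2-fold or more were fewer, with 25 genes up and 113 down. Among well expressed genes the knockdown libraries thus held more falls than rises, the opposite of the count over all genes. By mass, the genes called higher rose from 1.34% to 2.29% of all CPM, and the genes called lower went from 7.33% to 4.38%. The uncalled genes made up 91.3% and 93.3%.

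**Figure D1:**
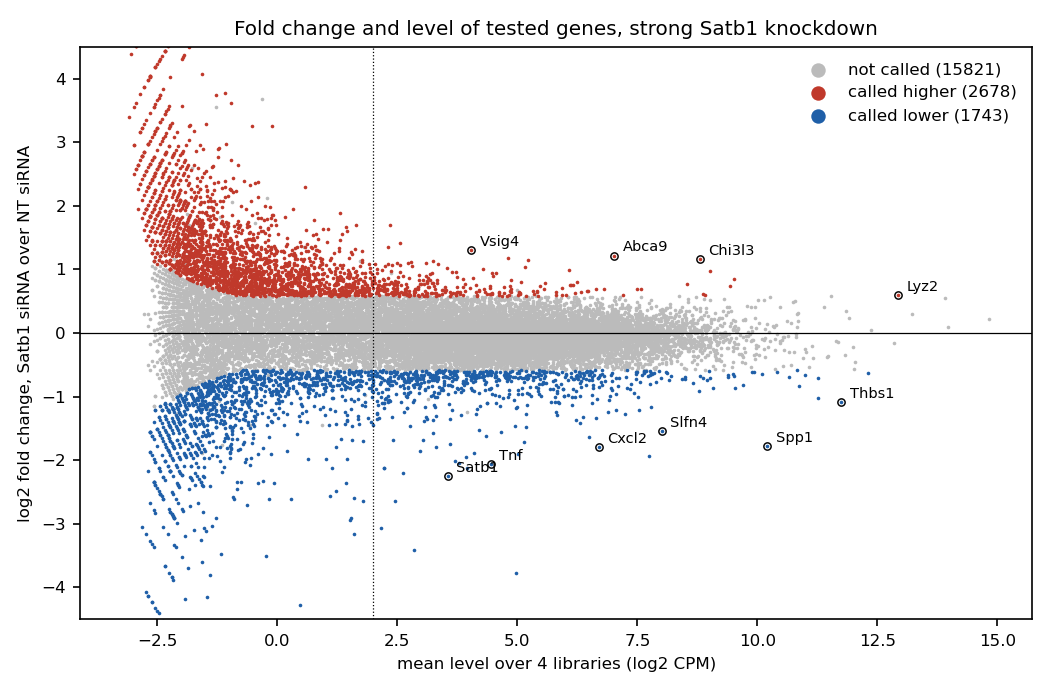
Each point is a tested gene, with its mean level over the 4 libraries (log2 CPM) across and its log2 fold change, Satb1 siRNA over NT siRNA, upward. Red points were called higher (2678) and blue points lower (1743), and the dotted line marks a mean log2 CPM of 2. Most rises lie left of that line, and 158 genes fall outside the axis limits of 4.5.

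Odorant and pheromone receptor genes, best known from the nose, made up part of the low-level rises and were looked at after their values were seen. Of 520 tested olfactory receptor genes, 228 were higher and 77 lower, with a median log2 fold change of 0.67. Their summed level was 561, 571, 708 and 715 CPM. Of 185 tested vomeronasal receptor genes, 75 were higher and 27 lower, with a median of 0.55 and sums of 430, 430, 558 and 559 CPM. The shares were 43.8% higher and 14.8% lower for olfactory and 40.5% and 14.6% for vomeronasal receptors. Of all genes under a mean log2 CPM of -2, 41.8% were higher and 16.3% lower, and at -2 to 0 29.7% and 14.3%. The median level was -2.07 for olfactory and -1.63 for vomeronasal receptors, so each family had members in both bands. They were not compared with other genes of like level, so nothing particular to either family is read from these shares. Of the 705 genes in both families, 695 were below a mean log2 CPM of 2. Many are near-identical copies, so how the authors divided reads among them bears on single members.

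Some genes with wide changes are shown with the sequence just before their starts, where regulators of transcription are known to bind. The 150 bases before the first listed start are printed for Tnf, Cxcl2, Cxcl1 and Slfn4 among the largest falls, and for 2 macrophage receptor genes among the largest rises. They are RefSeq sequences of GRCm38.p6, 5′ to 3′ on the strand of the gene, taken at chr17:35202008-35202157 (- strand) for Tnf, chr5:90903749-90903898 (+ strand) for Cxcl2, chr5:90891095-90891244 (+ strand) for Cxcl1, chr11:83175036-83175185 (+ strand) for Slfn4, chrX:96293439-96293588 (- strand) for Vsig4, chr6:124304501-124304650 (+ strand) for Cd163. Capitals mark matches, on either strand, to the TATA box (TATAAA), the NF-kappaB site (GGANTTTCC), the AP-1 site (TGANTCA), the CCAAT box (CCAAT) and the GC box (GGGCGG).
Tnf: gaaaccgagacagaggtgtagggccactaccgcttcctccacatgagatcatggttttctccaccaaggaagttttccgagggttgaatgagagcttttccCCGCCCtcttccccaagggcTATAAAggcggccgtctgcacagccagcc
Cxcl2: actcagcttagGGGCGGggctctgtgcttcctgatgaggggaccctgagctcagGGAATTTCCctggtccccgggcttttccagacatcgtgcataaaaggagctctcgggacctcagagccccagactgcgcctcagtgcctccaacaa
Cxcl1: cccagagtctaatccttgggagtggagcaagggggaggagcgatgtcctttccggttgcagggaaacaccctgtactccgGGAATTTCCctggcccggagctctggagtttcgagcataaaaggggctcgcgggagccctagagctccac
Slfn4: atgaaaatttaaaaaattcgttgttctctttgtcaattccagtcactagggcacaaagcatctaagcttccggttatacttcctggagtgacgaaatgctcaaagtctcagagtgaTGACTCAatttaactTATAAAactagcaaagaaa
Vsig4: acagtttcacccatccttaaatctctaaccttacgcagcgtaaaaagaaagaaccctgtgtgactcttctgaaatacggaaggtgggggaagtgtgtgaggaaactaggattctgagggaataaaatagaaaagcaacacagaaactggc
Cd163: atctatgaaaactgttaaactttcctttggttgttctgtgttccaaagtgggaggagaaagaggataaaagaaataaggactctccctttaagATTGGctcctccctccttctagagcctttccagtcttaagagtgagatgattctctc
The TATA box of Tnf began 29 bases before the start and its GC box 49. The NF-kappaB matches of Cxcl2 and Cxcl1 began 96 and 70 bases before it, and Cxcl2 also held a GC box at 139. Slfn4 held an AP-1 match at 34 and a TATA box at 19. Cd163 held a CCAAT box on the other strand at 57, and Vsig4 held none of the motifs searched. A match is a description of letters and does not show binding.

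Where the mean log2 CPM was 4 or more, genes were ranked by fold, with histone, mitochondrial, small RNA and placeholder symbols left out. Among those left out, Hist1h2af, Hist1h2ai and Hist1h2bn were called lower, with log2 fold changes of -1.88, -1.61 and -1.56. The largest falls that remained were led by signals that myeloid cells secrete. Tnf, the inflammatory cytokine, stood at 33.0 and 32.1 CPM with NT and at 8.31 and 7.31 with Satb1 siRNA, a log2 fold change of -2.06 (SE 0.05). Cxcl2, a chemokine that draws neutrophils, stood at 153, 153, 44.9 and 43.7 CPM (-1.79, SE 0.02). Cxcl1, its close relative, stood at 50.3, 51.3, 16.3 and 14.5 CPM (-1.72, SE 0.04). In each the control libraries lay about 3-fold or more above the knockdown libraries, with no overlap. The choice of genes by fold between near-identical repeats made this separation nearly certain. Spp1, which encodes the matrix protein and cytokine osteopontin, stood at 1805, 1814, 529 and 525 CPM (-1.78). Mt2, which encodes a metal-binding metallothionein, stood at 128, 132, 42.2 and 41.8 CPM (-1.63). Slfn4, a Schlafen gene of myeloid cells, stood at 374, 369, 128 and 128 CPM (-1.54). These 3 genes of different roles fell by like amounts. Igf2bp2, which encodes an RNA-binding protein, stood at 26.2, 25.3, 8.74 and 9.07 CPM (-1.53), and Procr, the receptor of protein C, at 50.2, 50.8, 18.4 and 17.7 CPM (-1.48).

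The largest rises under the same rule were smaller and held several genes known from resident macrophages. Vsig4, a complement receptor, stood at 10.4 and 9.62 CPM with NT and at 24.3 and 25.02 with Satb1 siRNA, a log2 fold change of 1.30 (SE 0.05). Abca9, a lipid transporter gene of the ABC family, stood at 80.1, 80.9, 189 and 186 CPM (1.22, SE 0.02). Gpr34, a receptor of lysophosphatidylserine, stood at 18.0, 17.8, 40.5 and 40.2 CPM (1.18, SE 0.04). Again no control library overlapped a knockdown library, which the choice by fold made nearly certain. Chi3l3, a chitinase-like protein of macrophages with a near-identical copy in the genome, stood at 282, 282, 632 and 626 CPM (1.16). Cd163, the scavenger receptor of haptoglobin and haemoglobin, stood at 355, 354, 695 and 700 CPM (0.98). Cx3cr1, the fractalkine receptor, stood at 46.8, 46.9, 93.2 and 92.6 CPM (0.99). All 3 about doubled. Sult1a1, a sulfotransferase gene, and Igfbp5, which binds insulin-like growth factors, completed the list with log2 fold changes of 1.01 and 0.95.

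**Figure D2:**
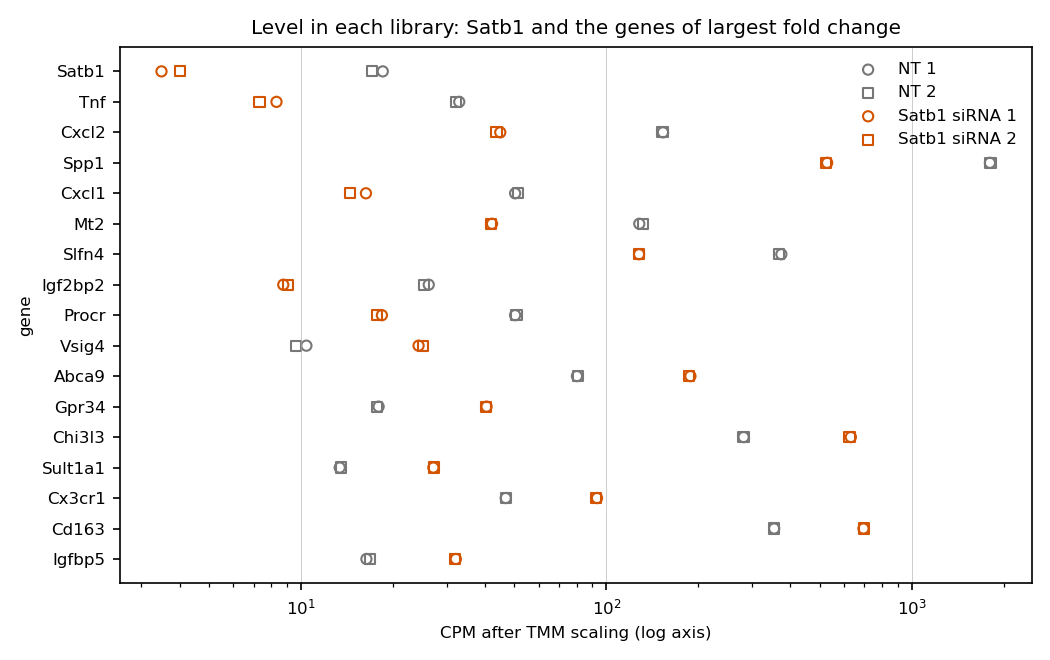
Level in each library of Satb1, the 8 largest falls and the 8 largest rises, in CPM after TMM scaling on a log axis. Histone, mitochondrial, small RNA and placeholder symbols were left out of the ranking. Grey marks NT libraries, orange marks Satb1 siRNA libraries, and circles and squares are libraries 1 and 2. The marks of the same siRNA lie nearly on each other. The siRNAs are apart for all 17 genes, from Tnf at 33.0 against 8.31 CPM to Igfbp5 at 16.4 against 32.1. The genes other than Satb1 were picked by their fold, which made this separation nearly certain.

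By transcripts gained or lost, with the same symbols left out, other genes led. Thbs1, which encodes the matrix protein thrombospondin 1, stood at 4688, 4665, 2216 and 2186 CPM (log2 fold change -1.09). The ferritin chains that store iron were both lower, Fth1 at 6106, 6152, 3932 and 3956 CPM (-0.64) and Ftl1 at 3277, 3242, 1627 and 1581 CPM (-1.02). The Fth1 call ends at -0.58 with scaling by library size. Pkm2, the pyruvate kinase gene of glycolysis, and Calr, the chaperone calreticulin, were lower by log2 values of -0.71 and -0.83. Lyz2, the lysozyme of macrophages, gained most, from 6172 and 6191 to 9381 and 9377 CPM (0.60). Lyz2 has a near-identical copy in Lyz1, so its count depends on how reads were divided. Serinc3, a membrane protein gene, stood at 525, 529, 939 and 954 CPM (0.84). A gene listed as mKIAA1011 stood at 524, 525, 876 and 870 CPM (0.73).

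Gene groups were then read, at a mean log2 CPM of at least 2, against the background of 2.25% higher and 5.3% lower. Each list is given by its counts and its median, with no test of the list. Among ligands, 2 of 6 members of the TNF family fell, Tnf and Tnfsf8 (log2 fold change -0.88), which encodes the ligand of CD30, and none rose. The median was -0.40, with 5 of 6 below 0. Among 14 TNF receptors 2 fell and none rose, with a median of -0.34. Tnfrsf9, the costimulatory receptor 4-1BB, stood at 5.71, 5.48, 2.43 and 2.20 CPM (-1.27), and Tnfrsf26 fell by 0.86 on the log2 scale. Of 16 growth factor genes, 2 rose, Hgf (0.64), which encodes hepatocyte growth factor, and Pdgfc (0.60), of the platelet-derived family, and 1 fell, the stress cytokine gene Gdf15 (-0.87). Pdgfc slips to 0.58 without Satb1 siRNA library 2, just under the fold limit. Igf1 at 0.27, Gas6 at 0.39, Pros1 at 0.47 and Vegfa at -0.40 were not called.

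Among 27 interleukin and interferon receptor genes 1 rose and 3 fell, and their median of -0.06 lay at that of all genes. Il7r, the receptor of interleukin 7, stood at 102, 103, 40.3 and 38.8 CPM (-1.38, SE 0.03). Il18r1, a subunit of the interleukin 18 receptor, stood at 4.75, 4.79, 9.24 and 10.6 CPM (1.05, SE 0.08). Il2rg, the common gamma chain that Il7r pairs with, fell by 0.65 on the log2 scale, and Csf2rb, the shared beta chain of the GM-CSF receptor, by 0.62, which is under the limit with scaling by library size (-0.57). In the JAK and STAT pathway that such receptors signal through, 2 of 21 genes fell and none rose, with a median of -0.17. Both were feedback inhibitors. Socs3 stood at 78.9, 76.2, 42.9 and 41.5 CPM (-0.88, SE 0.03), and Socs2 fell by 0.77 on the log2 scale. The factor Stat3 at -0.17 was not called. Below the level limit, Socs1 and Cish, also feedback inhibitors, fell by 2.70 and 2.03. Socs1 had 61, 70, 7 and 8 counts and Cish 62, 58, 10 and 12. At their level, a mean log2 CPM of -2 to 0, 14.3% of all tested genes were called lower.

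Receptors on the cell surface were read next. Among 17 integrin genes only Itgax was called, at 22.6, 22.5, 6.13 and 5.53 CPM (-1.95, SE 0.06), while Itga4 at 0.41 and Itgb3 at 0.46 were not. Among 21 Siglec and paired immune receptor genes 4 fell and none rose, with a median of -0.19 and 15 below 0. Clec4e, which encodes Mincle, a receptor of mycobacterial glycolipid, stood at 132, 132, 64.9 and 63.7 CPM (-1.04, SE 0.02). Treml4 stood at 11.1, 10.8, 4.70 and 5.13 CPM (-1.16), and the other two were Pira6, a member of a family of near-identical copies, and Trem1. The Trem1 call, at -0.64, ends with scaling by library size (-0.58) and without Satb1 siRNA library 2 (-0.56). Clec7a at 0.52, the beta-glucan receptor Dectin-1, and Cd33 at 0.44 were not called.

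Among 25 orphan G protein-coupled receptor genes 5 rose and 1 fell. Beside Gpr34 the rises were Gpr22 (0.72), Gpr56 (0.72), an adhesion receptor, Gpr155 (0.69) and Gpr125 (0.65). Gpr35 stood at 120, 119, 66.4 and 64.8 CPM (-0.87). Of 12 purine receptor and enzyme genes P2ry12, an ADP receptor known from microglia and platelets, was the called member, at 24.8, 25.8, 44.3 and 43.8 CPM (0.80). Of 12 potassium channel genes 2 rose, Kcnj15 (1.11) and Kcnip3 (1.09), and none fell. Of 20 tetraspanin genes Tspan15 rose (0.85) and Tspan31 fell (-0.66). Of 21 semaphorin, plexin and neuropilin genes Sema6b fell (-0.73) and none rose.

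**Figure D3:**
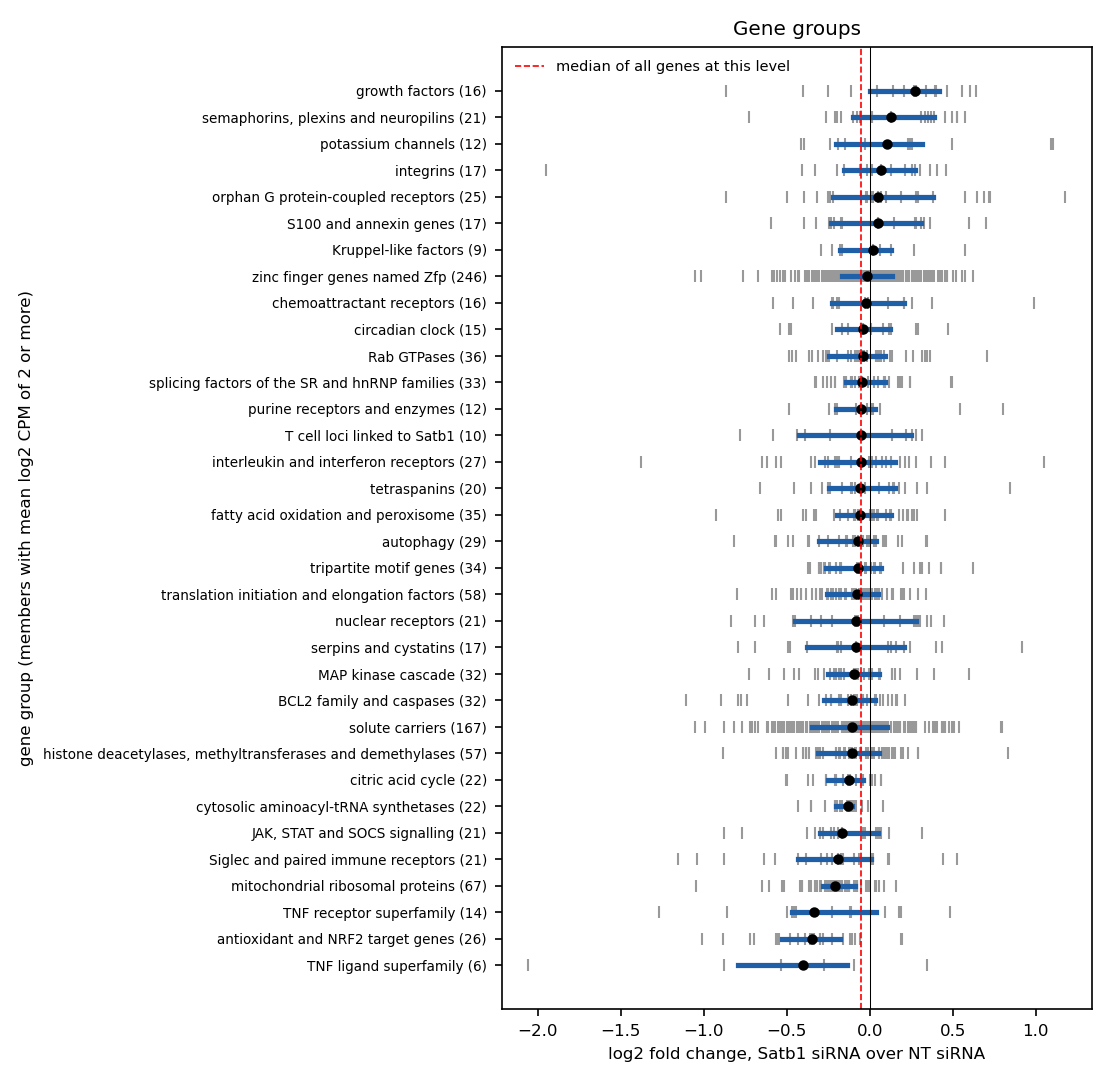
Log2 fold change, Satb1 siRNA over NT siRNA, of the members of the gene groups at a mean log2 CPM of 2 or more; ticks are genes, blue bars span the middle quartiles, black dots are medians, and the dashed line is the median of all genes at that level. The medians run from -0.40 for TNF ligands to 0.27 for growth factors.

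Genes of protection against oxidants and of cell survival followed. Among 26 antioxidant genes and targets of the NRF2 factor, 4 fell and none rose, with a median of -0.35 and 24 below 0. Prdx6, a peroxiredoxin that removes peroxides, stood at 240, 239, 120 and 118 CPM (-1.01, SE 0.02). Blvrb, a biliverdin reductase, stood at 68.0, 67.1, 37.0 and 36.1 CPM (-0.88), and Slc7a11, the cystine importer, and Prdx1 fell by 0.72 and 0.69. Gclc at -0.34, Gclm at -0.36 and Hmox1 at -0.30, targets of the same factor, were not called. Among 32 genes of the BCL2 family and caspases 5 fell and none rose. They were Bbc3 (-1.10), Bak1 (-0.79), Bax (-0.78) and Bad (-0.74), which promote cell death, and Bcl2a1d (-0.90), of a survival family with near-identical copies.

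Solute carriers were the largest group of transporters, with 12 of 167 lower and 2 higher, shares near the background. Slc16a3, the lactate exporter, stood at 158, 157, 77.9 and 73.6 CPM (-1.06, SE 0.02). Slc25a25, a mitochondrial carrier, stood at 11.7, 11.6, 5.98 and 5.73 CPM (-0.99). The zinc transporters Slc39a3 and Slc39a14 fell by 0.88 and 0.77. The rises were Slco2b1 (0.80), an organic anion transporter, and Slc9a9 (0.79), a proton exchanger of endosomes. Among 67 genes of mitochondrial ribosomal proteins 3 fell and none rose, Mrps12 (-1.05) the most, but 61 of 67 lay below 0, with a median of -0.21. Of 22 genes of the citric acid cycle none was called, with a median of -0.13 and 17 below 0. Over all genes at this level 57.6% lay below 0, and scaling by library size adds about 0.05 to each value.

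Housekeeping groups of RNA and protein synthesis held few calls. None of 33 splicing factor genes and none of 22 cytosolic aminoacyl-tRNA synthetase genes was called. Of 58 translation factor genes Eif4ebp1, a brake on translation, stood at 56.4, 55.3, 33.0 and 31.0 CPM (-0.80), and Eif5a was at -0.59, a call that ends without Satb1 siRNA library 2 at -0.58 and with scaling by library size at -0.53. Of 29 autophagy genes Atg4d fell (-0.82), and of 35 genes of fatty acid oxidation and the peroxisome Pex16 fell (-0.93). None rose in these lists.

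Regulators of transcription and chromatin, the class that Satb1 belongs to, were read in several lists. Of 57 genes of histone and DNA modifying families Tet1, which oxidizes methylated cytosine, rose (0.83), from 3.15 and 2.86 to 5.16 and 5.57 CPM. Dnmt3l, a cofactor of DNA methylation, fell (-0.88), from 6.13 and 6.02 to 3.40 and 3.18 CPM. Of 246 zinc finger genes named Zfp 5 fell and 1 rose. Zfp36, which encodes tristetraprolin and shortens the life of cytokine mRNAs such as that of Tnf, stood at 39.4, 38.9, 19.1 and 18.6 CPM (-1.05, SE 0.04). Of 21 nuclear receptor genes 3 fell, among them Pparg (-0.84), a receptor of lipid ligands, and Rxrb (-0.69), a partner of such receptors. None of 15 clock genes and none of 9 Kruppel-like factor genes was called, with Per1 at -0.54 and Klf4 at 0.57. Klf4 passes the limit with scaling by library size (0.63), without NT library 1 (0.59) or without Satb1 siRNA library 2 (0.59).

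Loci that Satb1 is known to act on in T cells were read from a separate list. Of its 10 members at this level 1 fell, Zbtb7b, the factor ThPOK of helper T cells, at 57.0, 57.8, 33.5 and 33.2 CPM (-0.78, SE 0.03). Runx3 at -0.58 was just short of the limit, and it passes without NT library 2 (-0.62). Below the level limit Rag1 (-0.75) of antigen receptor recombination and Pdcd1 (-1.44), which encodes PD-1, fell, and Cd8b1 (1.02) rose. At their level, a mean log2 CPM of -2 to 0, 29.7% of all tested genes were called higher and 14.3% lower. With DESeq2 the adjusted p was 0.0749 for Rag1 and 0.0538 for Cd8b1.

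Genes of trafficking, protease inhibition and calcium binding were mixed. Of 36 Rab GTPase genes Rab6b rose (0.71) and none fell. Among the serpin and cystatin genes Cstb, an inhibitor of cathepsins, fell (-0.69), and Serpina1a, one of near-identical copies, rose (0.92). Of 17 S100 and annexin genes 2 rose and 1 fell. S100a8 rose (0.70), from 4.402 and 4.11 to 7.21 and 6.59 CPM, and S100a9 (0.60) with it. Both belong to the neutrophil markers given above, so their rise is no separate observation. Anxa11 fell (-0.59), a call that ends without NT library 2 (-0.58), without Satb1 siRNA library 1 (-0.55) and with scaling by library size (-0.54).

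Promoters were then compared as sets, in a window of 250 bases before to 50 after the first listed start, on both strands. At a mean log2 CPM of at least 2, promoters of 468 lower, 153 higher and 8343 tested genes were matched. The TATA box was in 13.5% of lower, 12.4% of higher and 7.25% of all promoters. The NF-kappaB site was in 2.99% of lower, 1.96% of higher and 1.26% of all, and the AP-1 site in 7.69%, 7.84% and 5.02%. With the NF-kappaB site these are 14 lower and 3 higher promoters, so its shares rest on few genes. The interferon-stimulated response element (TTCNNTTTC) was in 10.04% of lower, 5.88% of higher and 7.56% of all. Promoters of called genes of either direction thus held the TATA box more often than the set they came from.

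Other motifs were rarer in promoters of higher genes. The GC box was in 47.7% of higher, 64.3% of lower and 65.2% of all, and the E-box (CACGTG) in 3.92%, 9.83% and 10.5%. The cAMP response element (TGACGTCA) was in 0.65% of higher, 4.06% of lower and 3.45% of all. Among the 153 higher promoters these are 6 with an E-box and 1 with the cAMP response element, so each share rests on few genes. The CCAAT box, in 39.2%, 42.5% and 39.3%, was nearly even. The octamer (ATTTGCAT) and the CEBP-ATF element (TGATGCAA) were in 2.99% and 1.28% of lower promoters against 1.43% and 0.62% of all. Those are 14 and 6 lower promoters, again few genes. The median GC content was 57.7% in higher, 58.3% in lower and 61.0% in all promoters, with medians of 12, 17 and 21 CpG. The part of base composition in the motif shares was not tested.

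**Figure D4:**
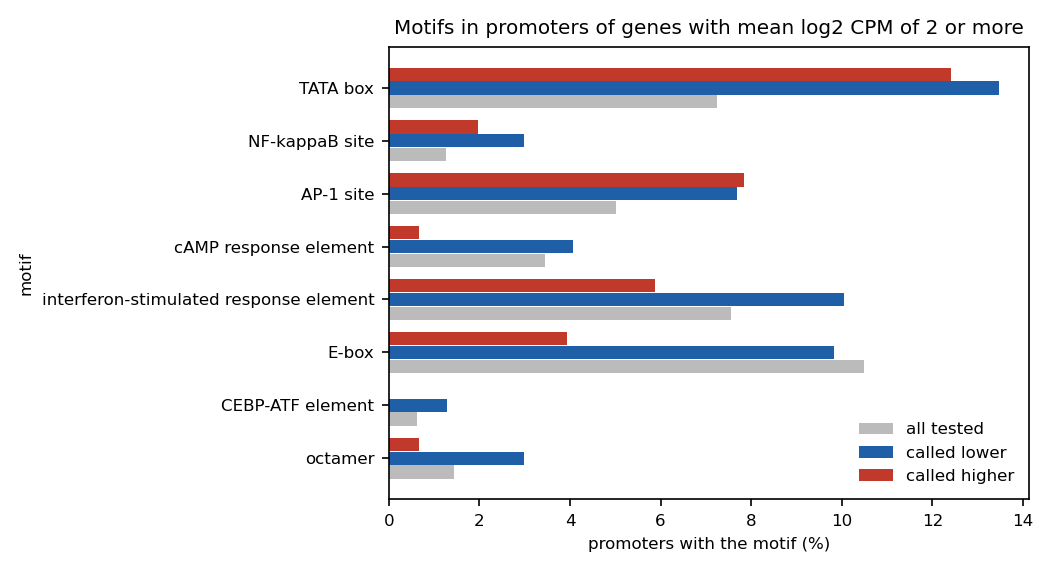
Share of promoters (%) with each of 8 motifs, for genes at a mean log2 CPM of 2 or more; grey bars are all tested genes, blue called lower, red called higher. The TATA box bars of called genes (13.5% and 12.4%) exceed that of all tested genes (7.25%), and the E-box bar of higher genes is short (3.92% against 10.5%).

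Since Satb1 folds neighbouring genes into common loops, the order of called genes along the chromosomes was described. This was done for 17592 tested genes placed by the RefSeq gene order, with no level limit. A called higher gene was followed by another in 20.5% of cases, against 12.1% of all placed genes. For lower genes these shares were 15.9% and 8.79%. Many of the higher runs held olfactory or vomeronasal receptor genes at low level, and the part of level in these shares was not tested. There were 81 runs of at least 3 neighbouring higher genes and 38 of lower genes. The longest lower runs, of 10, 9 and 6 genes, were replication-dependent histone genes on chromosome 13, with medians of -0.94, -1.61 and -1.30. Their mRNAs lack a poly(A) tail and many are near-identical copies. Among the longest higher runs, of 6 genes, were olfactory receptors on chromosome 7 (median 1.22) at low level, and Speer and related genes on chromosome 5 (median 0.70), a family of like copies of which 5 had a mean log2 CPM above 2.

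2 lower runs of 5 genes joined unrelated genes. On chromosome 7 Lhb, Ruvbl2, Gys1, Ftl1 and Bax were adjacent among the tested and placed genes, with a median of -1.02. Lhb had only 29, 25, 0 and 0 counts. Gys1, the glycogen synthase of muscle and many other tissues, stood at 68.3, 67.8, 32.4 and 31.9 CPM (-1.08), and Ruvbl2, an ATPase of chromatin complexes, at 34.0, 33.9, 21.2 and 20.2 CPM (-0.71). On chromosome 10 Gm16517, Cdc34, MMET-1, Bsg and Hcn2 were adjacent in the same sense, with a median of -0.89. MMET-1 had only 56, 53, 12 and 11 counts and Hcn2 28, 41, 3 and 3. Bsg, a partner of lactate transporters, stood at 355, 349, 212 and 211 CPM (-0.73). The call of Gm16517 ends without Satb1 siRNA library 2, at -0.58.

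The low experiment, with its own NT library and 1 library per siRNA, shows the same genes where Satb1 was lowered less, and it allows no test. Its libraries also differed in replication-dependent histone genes. For example, Hist1h4f and Hist1h2ai were at 0 in both, and Hist1h1d at 1.73 and 1.44 CPM scaled over all 6 libraries. In the high experiment their mean levels with NT were 26.9, 29.0 and 54.2 CPM. The part of this difference in the comparisons below was not tested. Of 10790 genes at a mean log2 CPM of at least 2 there, 1103 were past 1.5-fold higher, or 10.2%, and 1164 lower, or 10.8%. Over 10076 genes at that level in both experiments, 560 were called lower under strong knockdown, and 183 of them were past 1.5-fold lower in the low experiment, which is 32.7% of the former and 17.7% of the 1033 lower there. In the opposite direction were 18. Of 118 called higher, 55 were also higher in the low experiment, 46.6% of the former and 5.79% of the 950 higher there, and 15 were lower. The median log2 ratio in the low experiment was -0.41 for the lower genes, 0.54 for the higher genes and -0.10 for all.

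Single genes parted along different lines. Cxcl2 at -2.36, Mt2 at -1.93, Cxcl1 at -1.81, Procr at -1.63, Tnf at -1.47 and Thbs1 at -1.14 were lower in both experiments. Spp1 at 0.56, Igf2bp2 at 0.27 and Itgax at 0.77 had the opposite sign in the low experiment, and Slfn4 was near 0 at -0.08. Of the rises, Igfbp5 at 1.40 and Vsig4 at 0.58 had the same sign, while Chi3l3 at -1.71, Cd163 at -0.89, Sult1a1 at -0.71, Abca9 at -0.49, Cx3cr1 at -0.48 and Gpr34 at -0.37 were lower. In the low experiment the mesothelial or tumour markers were higher and the macrophage markers lower with Satb1 siRNA, for example Upk3b at 2.31 and Krt19 at 1.51 against Csf1r at -0.86 and Emr1 at -0.75. The part of these marker shifts in the values above was not tested. Whether the differences between experiments come from the size of the Satb1 decrease or from the libraries cannot be told apart.

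**Figure D5:**
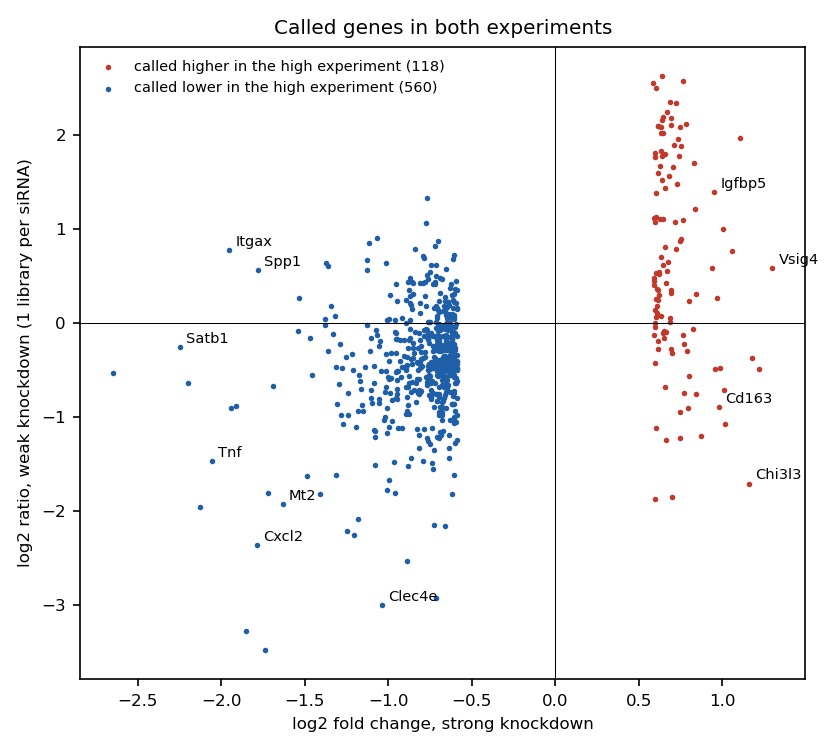
Log2 fold change under strong knockdown (across) against the log2 ratio under weak knockdown (upward, 1 library per siRNA) for the 118 genes called higher (red) and 560 called lower (blue) at a mean log2 CPM of 2 or more in both. Tnf and Cxcl2 lie in the lower left, while Spp1 and Itgax lie upper left and Chi3l3 and Cd163 lower right.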

How the data were processed

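One deposited table gave an estimated count and an FPKM value per gene and library. The counts are expected counts deposited by the authors, taken to be from RSEM 1.2.12, which the submitters' processing notes name with DESeq2 and mm9, and all were whole numbers. The FPKM values are the authors' own, per the file headers, and were used only for markers and for Satb1. RNA was isolated with Trizol and made into TruSeq Stranded Total RNA libraries, per the labels' protocols. The sources used here do not say how strand was handled.

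The 4 high libraries were fitted with edgeR 4.0.16 in R 4.3.3 (limma 3.58.1), with TMM scaling (factors 0.98 to 1.02), filterByExpr by siRNA and robust quasi-likelihood F-tests, two-sided, with Benjamini-Hochberg adjustment over all 20242 genes tested. SE is the log2 fold change divided by the root of F. On simulated counts of 19666 genes the fit recovered 100 of 100 genes changed by 1 and 100 of 100 changed by 1.5 on the log2 scale, with 4 false calls. The changed genes were drawn from those with a mean CPM above 2, and all genes were given the same spread. This recovery therefore does not bear on calls at lower levels. A count of 0 allows up to 3 counts. The low experiment used log2 CPM ratios with a prior count of 2. Same-numbered libraries did not deviate together (correlation 0.01 over 7557 genes), so the numbers do not pair them.

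The members and the 35 lists were chosen with earlier results of these data known. Some lists name their genes and the others take a symbol pattern, and 300 of 321 named entries were in the table. Genes were named by rule: the 8 largest called rises and falls by fold at a mean log2 CPM of at least 4, the 6 largest by CPM difference, up to 2 called members per list and direction, printed runs and the markers. Both rankings left out symbols starting with Mir, Snor, DQ, AK, BC, LOC, Rnu, n-R or mt-, or with Hist or Gm and a digit. Symbols that end in Rik or consist of 2 letters and 6 digits were left out too. Other genes, uncalled members included, were named after their values were seen. Gene order and promoters came from RefSeq tables of GRCm38.p6, another build than mm9, with 15524 genes placed by symbol, 2068 by synonym and 2650 unplaced, and 13740 promoters matched. Alternatives tried were DESeq2 1.42.0, library size scaling, no filter, all 6 libraries, the replicate block, each library left out, a 2-fold limit, a level limit, FPKM for Satb1, longer runs and a shorter promoter window. Some items that these rules select are not reported here.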

Additional observations from a re-analysis of the deposited data

How the results depend on the processing

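The genes higher in the high experiment numbered 2678, but 1609 with DESeq2, 1510 with a fold of at least 2 and 256 where the mean log2 CPM was at least 2. The genes lower in the high experiment numbered 1743, but 797 with that fold and 603 at that level. With DESeq2 252 of the 256 higher and all 603 lower genes at that level were called again. With scaling by library size, which moved the median of all genes to 0.06, 3012 were higher and 1496 lower, and 28 of the 35 list medians moved. With promoter bases before the start only, 11 motif shares, counted without the level limit, moved and 19 did not. Without 1 library, higher genes numbered 2395 to 2532 and lower genes 1581 to 1773. Adding the replicate number as a block gave 2622 and 1701 and shared 2611 and 1692 of the calls, with none of the 258 genes followed singly changing its call; since the numbers do not pair the libraries, this is no paired design. Satb1 stayed between -2.35 and -2.15 in every alternative run, at -2.25 with the block and at -2.23 by FPKM. Runs of at least 4 genes numbered 19 higher and 8 lower, against 81 and 38 of at least 3. Timd4 log2 fold change (-0.020) was 0.035 with library size scaling and ran from -0.094 to 0.042 with 1 library left out, and that of Cd79a (-0.27) ran from -0.58 to 0.098, the highest of each without NT library 1. Low-level calls, among them olfactory receptors, depend most on single libraries. The near-identical repeats hold no spread between mice, so no p-value bears on the treatment. The cause of the changes between settings was not tested.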

Other observations

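A few genes were listed at 0 in both libraries of 1 siRNA and had at least 80 counts in each library of the other. Cdkn2d, which encodes an inhibitor of the cell cycle, had 0 and 0 counts with NT and 123 and 135 with Satb1 siRNA, and it was listed at 0 in both libraries of the low experiment. Gm14351 had 0, 0, 128 and 183 counts, and Gm2825 had 165, 169, 0 and 0. Apol7b, with 0, 0, 217 and 84 counts, and BC086906, with 0, 0, 1097 and 347, differed between the repeats of Satb1 siRNA by far more than counting noise, and neither was called, with edgeR adjusted p-values of 0.187 and 0.216. The 5 genes were picked by their counts, and the part of the division of reads among like genes was not tested.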
